A study of Mus musculus with 6 samples.

Results

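The genes described here are the chemokine ligands and receptors of the mouse array, taken by symbol (Ccl, Cxcl, Ccr or Cxcr with a number, plus Cx3cl1, Cx3cr1, Xcl1 and Xcr1) from probe sets annotated to a single gene. They were 49 of 18193 genes, 33 ligands and 16 receptors, read by 77 of 45037 probe sets. Each gene was represented by its brightest probe set, taken on the mean of the 6 arrays, and 18 genes had more than 1 probe set.

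Chemokines are small secreted proteins that guide the movement of leukocytes and other cells along a gradient, and they act through G-protein-coupled receptors named after the class of ligand they bind. The ligands are classed as CC, CXC, CX3C or XC by the spacing of their first cysteines. Stromal cells are known for Cxcl12, which holds blood-forming cells in the marrow through its receptor Cxcr4. Macrophages are known for CC ligands such as Ccl3 and Ccl4 and for receptors such as Ccr1, and NF-kB and interferon signalling induce many ligands within hours.

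The irradiated group held mouse mesenchymal stem cells, bought from a commercial supplier, that were exposed for 2 h to a continuous-wave terahertz gas laser at 2.52 THz. In the control group the same kind of culture stood next to the laser-exposed dish at the same 26 to 27 °C without exposure. All cultures of both groups had received 1 µM rosiglitazone, 5 µg/ml insulin, 100 µM isobutylmethylxanthine and 1 µM dexamethasone, added again 48 h earlier, in medium with 5% serum, and the cultures of an experiment had been brought to the same stage of differentiation. These compounds drive such cells towards fat cells, and dexamethasone and rosiglitazone are both known to dampen inflammatory genes. There were 3 independent experiments with 1 irradiated and 1 control culture each, and RNA was taken directly after exposure. Values below are RMA levels in log2 units on 6 arrays, 1 per culture, and a difference of 1 unit is a factor of 2. No culture without the compounds was compared.

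Array medians lay between 5.01 and 5.05, and the median gene stood at 6.46. The control array of experiment 3 stood apart in the control probe sets of actin and Gapdh, the only measure of RNA quality read here. Its 3' minus 5' difference was 0.68 for actin and 0.11 for Gapdh, against 0.50 to 0.57 and -0.10 to -0.08 on the other 5 arrays. Fat cell markers were bright, with all 5 measured genes at or above the median gene, and so were 8 of 9 stromal markers. All 12 macrophage markers were also at or above it, between 7.85 for Itgam and 14.17 for Lyz2, although the label gives mesenchymal stem cells. None of 5 T cell, 3 B cell and 5 endothelial markers reached it, and of 5 neutrophil markers only S100a8 did. In these bulk cultures fewer cells of a type and less RNA per cell cannot be told apart.

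Of the 49 chemokine genes 16 were at or above the median gene, 14 ligands and 2 receptors, and the other 33 lay between 2.30 and 6.32. A level also reflects how well the probes bind, so levels of different genes give no ratio between them. The brightest of the 14 ligands were Cxcl12, Ccl9 and Ccl6, above 98.4 to 99.2% of all genes. Cxcl12 was at 12.79, 12.84 and 12.63 in the irradiated cultures of experiments 1 to 3, against 12.58, 12.76 and 12.70 in their controls. Ccl9, a CC ligand of mouse myeloid cells, was at 12.18, 12.39 and 12.26 in irradiated cultures, against 12.19, 12.48 and 12.30 in controls. The groups overlapped for both genes, and all 6 arrays lay within 0.26 units of each other for Cxcl12 and within 0.30 for Ccl9. Ccl6, a related mouse ligand, was at 11.81, 12.19 and 12.29 in irradiated cultures and 12.01, 12.20 and 12.31 in controls, with experiment 1 low in both groups.

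The macrophage ligands Ccl3 and Ccl4, which attract monocytes and T cells, varied little. Ccl3 was at 8.64, 8.94 and 8.87 in irradiated cultures and 8.77, 8.78 and 8.93 in controls. Ccl4 was at 7.59, 7.74 and 7.62 in irradiated cultures and 7.62, 7.82 and 7.70 in controls. Their ranges over the 6 arrays were 0.30 and 0.23 units. Ccl2 and Ccl7, monocyte attractants whose genes lie next to each other on chromosome 11, had their highest value on the same array. Ccl2 was at 8.68, 9.04 and 8.77 in irradiated cultures and 8.87, 8.51 and 8.69 in controls. Ccl7 was at 7.89, 8.27 and 8.07 in irradiated cultures and 8.11, 7.78 and 8.14 in controls. In both the irradiated culture of experiment 2 was the highest and its own control the lowest of the 6.

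Among the other bright ligands, Cxcl16, which is made as a membrane-bound protein, was at 7.31, 7.43 and 7.50 in irradiated cultures and 7.48, 7.36 and 7.34 in controls. Cx3cl1, or fractalkine, also membrane-bound, was at 6.60, 6.56 and 6.34 in irradiated cultures and 6.76, 6.61 and 6.62 in controls, so that every irradiated value was below every control. The mean difference was -0.16, and -0.105 without experiment 3. Its 3 dimmer probe sets had mean differences of 0.00, 0.01 and -0.04, so the separation was seen in 1 of 4 probe sets. Cxcl1, a neutrophil attractant, was at 7.02, 7.17 and 7.06 in irradiated cultures and 7.04, 6.90 and 7.21 in controls. Its probe sets did not vary alike: the range over arrays was 0.31 for this brightest one, whereas another stood at 5.58 in the irradiated culture of experiment 1 and at 6.89 in that of experiment 3. The brightest Cxcl1 probe set is of a type (suffix x) that can also bind related transcripts.

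**Figure D1:**
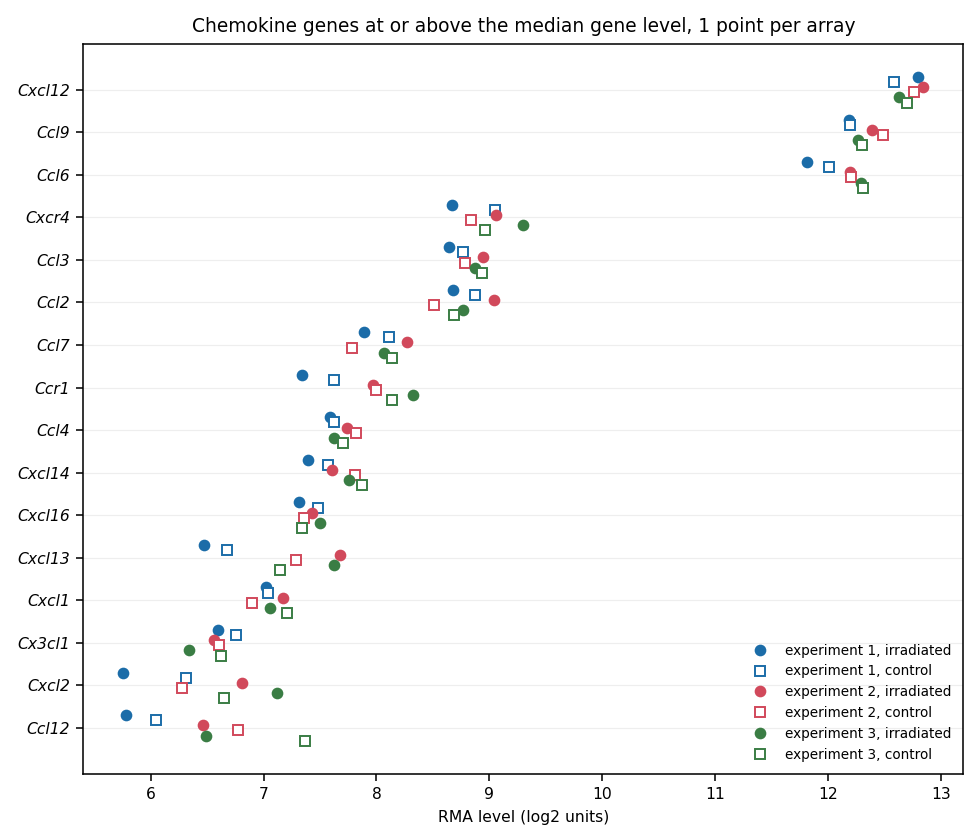
RMA level in log2 units (horizontal axis) of the 16 chemokine genes at or above the median gene, with filled circles for irradiated and open squares for control cultures and a colour per experiment. Cxcl12, Ccl9 and Ccl6 stood apart at about 12 units, and for Ccr1, Cxcl13 and Ccl12 both arrays of experiment 1 lay left of the others.

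Differences between the 3 experiments were tested in the same limma fit as irradiation, with a moderated F test over the experiment terms. No chemokine gene passed after Benjamini-Hochberg adjustment, nor did any of the 18193 genes (0% called), with a smallest adjusted p of 0.444 for a chemokine gene and 0.0661 for any gene. At an unadjusted p under 0.05 stood 8 of 49 chemokine genes, or 16.3%, against 5.46% of all genes. They were Ccl8, Ccl12, Ccr1, Cxcl13, Ccl6, Cxcl14, Ccr6 and Cxcl2. The count was 3 without experiment 1 (2.56% of all genes in that fit), 6 without experiment 2 (5.38%), 5 without experiment 3 (4.35%) and 4 without the control array of experiment 3 (3.28%). Of the 16 members at or above the median gene 6 stood at that p, against 3.63% of genes at that level. Between pairs of experiments no member was called, and 0.0055% of all genes were in experiment 3 minus experiment 1. At an unadjusted p under 0.05, 7 members were higher (3.5% of all genes) and 1 lower (2.69%) in experiment 2 than in experiment 1, 8 higher (3.14%) and 0 lower (3.3%) in experiment 3 than in experiment 1, and 3 higher (1.13%) and 1 lower (2.28%) in experiment 3 than in experiment 2.

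Experiment means spread over 0.195 units (median over the 49 genes), against 0.130 over all genes, and over 0.225 against 0.100 among those at or above the median gene. Experiment 1 was the low one. In 11 of 49 chemokine genes both its arrays lay below the 4 others, against 8.15% of all genes, and the 11 were Ccl3, Ccl6, Ccl8, Ccl9, Ccl12, Cxcl13, Cxcl14, Ccr1, Ccr2, Cxcr3 and Xcr1. Ccl3 (8.77 against 8.78), Ccr2 (5.12 against 5.13) and Cxcr3 (5.10 against 5.11) met this only by the last decimal. The count was 10 with centred arrays and with mean probe sets. In 2 genes, Ccr4 and Ccr8, both arrays of experiment 1 lay above the others, against 8.75% of all genes. Of the 16 brighter members 7 had both arrays of experiment 1 lowest and 0 had both highest, against 7.72% and 10.9% of genes at that level. Both arrays of experiment 2 were highest for Ccl4 and Ccl9 (5.82% of all genes) and lowest for Ccl5, Ccl27a and Cxcl3 (3.83%). Both arrays of experiment 3 were highest for Ccl5, Ccl6, Ccl8, Ccr1 and Cxcl3 (5.04%) and lowest for 0 members (4.91%). Among the 16 brighter members these counts were 2 highest (1.56% of genes at that level) and 0 lowest (4.04%) for experiment 2, and 2 highest (6.31%) and 0 lowest (2.79%) for experiment 3. These counts were chosen after the values were seen, describe the arrays and carry no test of their own.

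Ccl8, a monocyte attractant also called MCP-2, had the smallest p of the 49. It was at 5.72, 6.20 and 6.79 in the irradiated cultures of experiments 1 to 3, against 5.89, 6.24 and 6.76 in their controls. The experiments did not overlap, while the 2 cultures of an experiment differed by at most 0.17. Experiment 3 exceeded experiment 1 by 0.97 units (SE 0.101), with an adjusted p of 0.139 (limma, Benjamini-Hochberg). In a fit without the irradiation term that contrast passed, at an adjusted p of 0.0462. Ccl12, or MCP-5, its neighbour on chromosome 11, was at 5.78, 6.46 and 6.49 in irradiated cultures and 6.05, 6.77 and 7.37 in controls. Experiment 1 was again lowest, by 0.70 units against experiment 2 and 1.015 against experiment 3 (SE 0.162 each). The gap to experiment 3 was 0.72 without the control array of experiment 3, the highest of the 6.

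Cxcl13, which draws B cells into follicles, was at 6.47, 7.68 and 7.62 in irradiated cultures and 6.68, 7.29 and 7.15 in controls. Experiment 1 was lower than experiment 2 by 0.91 units and than experiment 3 by 0.81 (SE 0.171 each). Its second probe set had the same order, at 6.425, 6.95 and 6.785 as means of experiments 1 to 3. Ccr1, the receptor for Ccl3 and other inflammatory CC ligands, was at 7.34, 7.97 and 8.32 in irradiated cultures and 7.62, 8.0 and 8.14 in controls. Both its probe sets placed experiment 1 lowest and experiment 3 highest, with means of 7.48, 7.985 and 8.23 in the brighter and 3.405, 3.865 and 4.28 in the dimmer. Ccl6 had the same order in both its probe sets, at 11.91, 12.195 and 12.30 and at 10.845, 11.22 and 11.41.

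Cxcl2, like Cxcl1 a neutrophil attractant induced by NF-kB, was at 5.76, 6.81 and 7.12 in irradiated cultures and 6.31, 6.28 and 6.65 in controls. Its range of 1.36 units over the arrays was mostly among irradiated cultures, whose SD was 0.713 against 0.206 in controls. The dimmer Cxcl1 probe sets ran the same way, with experiment means of 6.48, 6.77 and 6.91 in one and 5.92, 6.285 and 6.725 in the other, whereas the brightest had 7.03, 7.035 and 7.135. Cxcl14, a ligand of epithelia and stroma, was at 7.39, 7.61 and 7.76 in irradiated cultures and 7.57, 7.81 and 7.87 in controls. Its dimmer probe set gave means of 5.84, 5.88 and 5.95, a smaller spread in the same order.

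The promoters shown belong to the 5 ligands whose experiment means lay farthest apart in any probe set, by 0.805 units for Cxcl1 to 1.015 for Ccl12, chosen after the values were seen. They are the 250 bases before the transcription start from RefSeq, build GRCm38.p6, 5′ to 3′ on the gene's strand, with matches to 4 motifs in capitals. RefSeq's table held promoters for 36 of the 49 genes.
Ccl8 (chr11:82114935-82115184, plus strand): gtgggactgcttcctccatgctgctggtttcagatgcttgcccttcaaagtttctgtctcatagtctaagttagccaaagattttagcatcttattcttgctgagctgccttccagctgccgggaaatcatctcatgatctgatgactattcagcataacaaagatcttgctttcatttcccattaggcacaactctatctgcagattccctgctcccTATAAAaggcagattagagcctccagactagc
Ccl12 (chr11:82101595-82101844, plus strand): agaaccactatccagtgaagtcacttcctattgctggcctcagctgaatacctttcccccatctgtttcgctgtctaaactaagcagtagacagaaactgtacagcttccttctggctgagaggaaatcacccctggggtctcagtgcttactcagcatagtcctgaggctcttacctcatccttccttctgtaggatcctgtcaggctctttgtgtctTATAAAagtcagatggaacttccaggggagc
Cxcl13 (chr5:95956689-95956938, plus strand): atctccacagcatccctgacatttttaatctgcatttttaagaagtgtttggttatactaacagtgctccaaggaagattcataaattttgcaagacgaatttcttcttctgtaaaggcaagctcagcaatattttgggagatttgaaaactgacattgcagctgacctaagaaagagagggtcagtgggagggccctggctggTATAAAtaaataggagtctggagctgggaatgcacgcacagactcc
Cxcl1 (chr5:90890995-90891244, plus strand): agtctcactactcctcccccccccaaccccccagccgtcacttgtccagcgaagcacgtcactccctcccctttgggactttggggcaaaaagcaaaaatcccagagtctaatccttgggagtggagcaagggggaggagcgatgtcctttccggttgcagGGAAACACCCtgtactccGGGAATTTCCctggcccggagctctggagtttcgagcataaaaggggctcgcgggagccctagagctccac
Cxcl2 (chr5:90903649-90903898, plus strand): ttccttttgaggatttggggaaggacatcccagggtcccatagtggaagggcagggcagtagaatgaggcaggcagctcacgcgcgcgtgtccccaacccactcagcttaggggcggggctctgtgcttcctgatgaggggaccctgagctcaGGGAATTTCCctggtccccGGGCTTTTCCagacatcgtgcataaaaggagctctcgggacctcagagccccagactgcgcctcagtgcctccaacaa
The motifs were an NF-kB form (GGG, any 2 bases, TTTCC), an interferon response form (TTTC, any 2 bases, TTTC) and an AP-1 form (TGANTCA), each searched on both strands, and TATAAA on the gene's strand. No match overlapped another in these 5 promoters. Ccl8, Ccl12 and Cxcl13 held TATAAA starting 32, 31 and 46 bases before the start and none of the other forms. Cxcl1 and Cxcl2 each held 2 NF-kB forms, among them GGGAATTTCC in both, 71 and 97 bases before the start, and the dim Cxcl3 held that same decamer. Of the other ligands with both arrays of experiment 1 lowest, Cxcl14 held the interferon form, Ccl9 held the NF-kB form, the AP-1 form and TATAAA, and Ccl3 and Ccl6 held none of the 4. Of all 32851 promoters searched 1.41% held the NF-kB form, 2.98% the interferon form, 6.75% the AP-1 form and 7.59% TATAAA. Among the 40 promoters of chemokine genes 6, 2, 5 and 10 held them. A match describes the letters only.

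The remaining members with small p in this test were mostly dim. Ccr6, a receptor of lymphocytes and dendritic cells, was at 4.28, 4.49 and 4.18 in irradiated cultures and 4.49, 4.63 and 4.29 in controls. Ccl5, or RANTES, was at 5.20, 5.08 and 5.26 in irradiated cultures and 5.22, 4.98 and 5.37 in controls. Xcr1, a dendritic cell receptor, was at 2.55, 2.96 and 3.18 in irradiated cultures and 2.80, 2.92 and 2.92 in controls. The experiment means of these 3 genes differed by at most 0.375 units. Ccr8 was at 3.29, 3.15 and 3.06 in irradiated cultures and 3.45, 3.14 and 3.22 in controls, and Ccr4, like Ccr8 a T cell receptor for chemokines, at 3.94, 3.67 and 3.91 against 4.08, 3.82 and 3.78 in controls. Cxcl3, the dimmest member, was at 2.25, 2.12 and 2.45 in irradiated cultures and 2.33, 2.24 and 2.41 in controls. Ccl27a, a skin chemokine, was at 5.54, 5.42 and 5.58 in irradiated cultures and 5.93, 5.45 and 5.66 in controls, with 1 high array. Its only probe set is of the suffix x type that can also bind related transcripts.

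Macrophage markers had the same low experiment. Their mean level over 12 genes was 11.18, 11.65 and 11.84 in the irradiated cultures of experiments 1 to 3, against 11.34, 11.59 and 11.61 in their controls. In 11 of the 12 both arrays of experiment 1 lay below the other 4, against 7.72% of genes at or above the median gene. In the F test 8 had an unadjusted p under 0.05, against 3.63% of those genes, with none called. Csf1r, the receptor for macrophage growth factor, had experiment means of 12.50, 12.86 and 12.975 and Mrc1, the mannose receptor, 11.89, 12.435 and 12.595. Stromal markers had experiment means of 9.37, 9.29 and 9.20 and fat cell markers 12.775, 12.70 and 12.61. Of 9 stromal and 5 fat cell markers 0 had both arrays of experiment 1 lowest, and 2 and 1 had an unadjusted p under 0.05 in the F test. Among the lists described below, 8 of 22 inducers and NF-kB genes had experiment 1 lowest, against 8.15% of all genes. So did 4 of 22 receptor signalling, 4 of 13 interferon, 2 of 10 ligand processing and 0 of 5 atypical receptor genes. In the F test 4, 2, 1, 2 and 1 genes of these lists had that p, against 5.46% of all genes. The part of macrophages, stromal cells and fat cells in the chemokine levels was not tested.

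**Figure D2:**
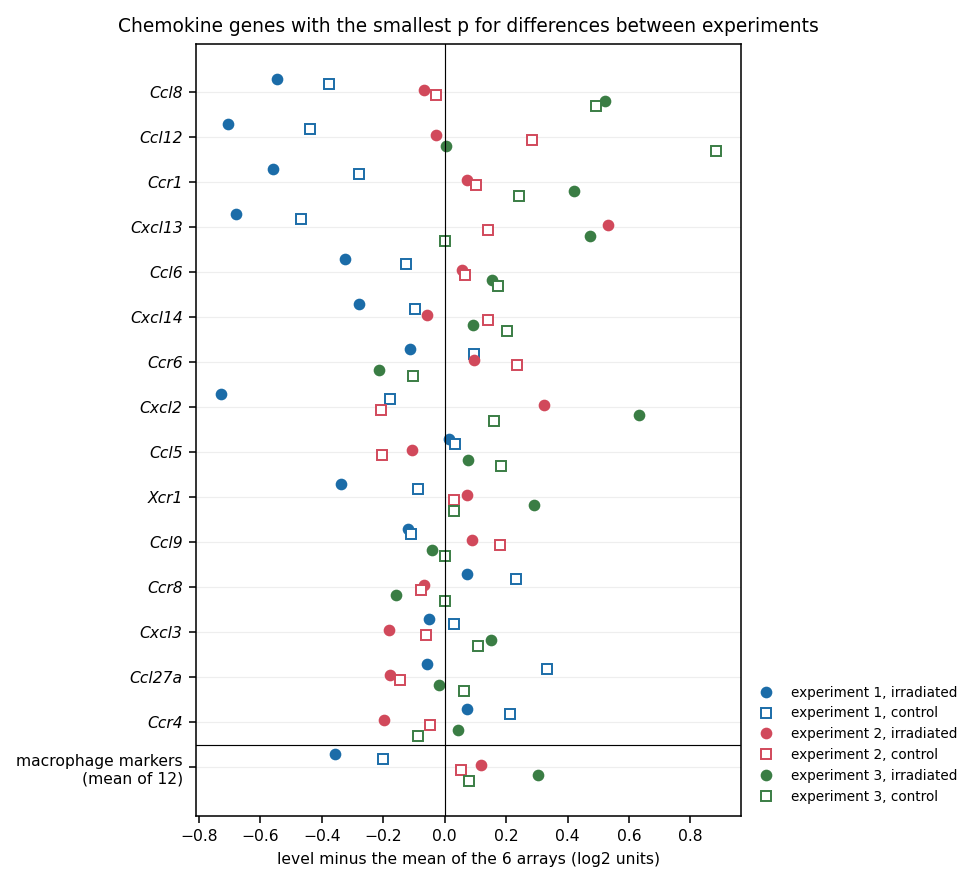
Level minus the mean of the 6 arrays, in log2 units (horizontal axis), for the 15 chemokine genes with the smallest p between experiments, and below the line for the mean of 12 macrophage markers. For Ccl8, Ccl12, Ccr1, Cxcl13, Ccl6 and Cxcl14 both arrays of experiment 1 lay left of the others, as they did for the macrophage markers.

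Irradiated cultures were set against the control culture of the same experiment. No chemokine gene passed: with experiment as a block limma called 0% of the 18193 genes, and the Benjamini-Hochberg adjusted p was 0.995 for each of the 49. At an unadjusted p under 0.05 stood 3 members, Ccl12, Ccl17 and Ccl25, or 6.12%, against 3.31% of all genes. Of these 1 was higher (1.42% of all genes) and 2 were lower (1.89%). The count of 3 was 5 without experiment 1 (3.4% of all genes in that fit), 1 without experiment 2 (2.85%) and 3 without experiment 3 (2.72%). The 95% interval lay within 2-fold either way for all 49 and within 1.5-fold for 47, the exceptions being Ccl12 and Cxcl2. These intervals are per gene, and changes of dim probe sets tend to come out too small after RMA.

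The mean difference was above 0 for 20 members and below 0 for 29, against 45.4% and 54.5% of all genes. Its median over the members was -0.03, against -0.01 over all genes, and by experiment it was -0.08, -0.03 and -0.02, against -0.03, -0.01 and 0.00. In all 3 experiments 12 members were below their control, against 12.8% of all genes, and 2, Ccl17 and Cxcr3, were above it, against 8.23%. The 12 were Ccl4, Ccl6, Ccl9, Ccl12, Ccl25, Ccl27a, Cx3cl1, Cxcl9, Cxcl14, Ccr6, Cxcr2 and Cxcr6. For 1 member, Ccl17, every irradiated value was above every control (2.90% of all genes), and for Ccl25 and Cx3cl1 every one was below (5.36%).

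**Figure D3:**
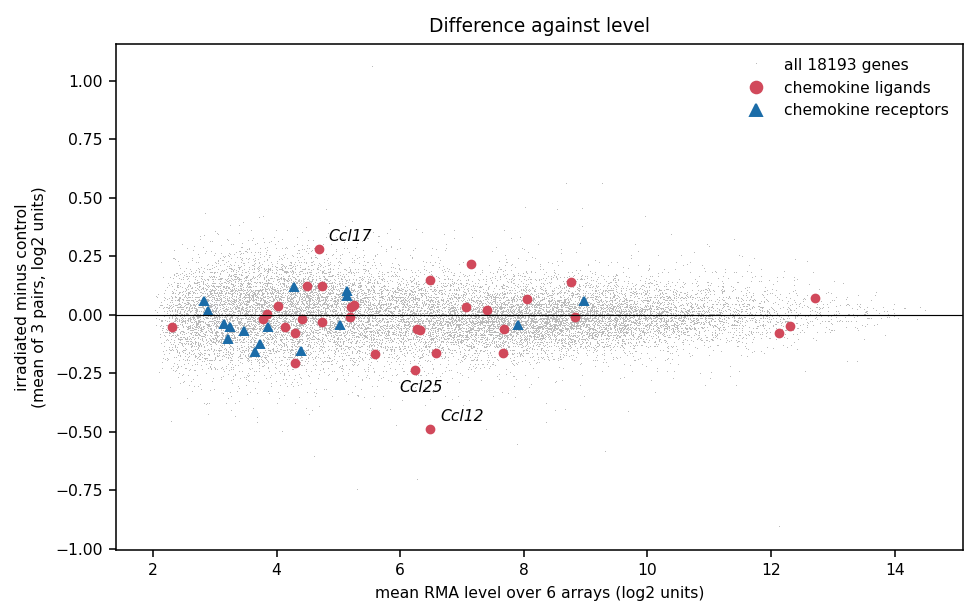
Mean difference, irradiated minus control in log2 units over 3 pairs (vertical axis), against the mean level over 6 arrays in log2 units (horizontal axis), for all 18193 genes in grey, chemokine ligands as red circles and receptors as blue triangles. The members lay between -0.49 for Ccl12 and 0.28 for Ccl17.

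Among the monocyte-attracting ligands, Ccl12 had a mean difference of -0.49 ± 0.34 (SD, n = 3 pairs), with -0.27, -0.31 and -0.88 in experiments 1 to 3. The groups overlapped, since both the irradiated cultures of experiments 2 and 3, at 6.46 and 6.49, were above the control of experiment 1, at 6.05. Its limma interval ran from -0.80 to -0.17, with an unadjusted p of 0.0085 and an adjusted p of 0.995. The unadjusted p was 0.171 in limma without the replicate block and 0.132 by ordinary least squares without moderation. Without experiment 3 the difference was -0.29, and that experiment holds the control array with the higher 3' minus 5' values, whose part in the result was not tested. Its neighbours on chromosome 11 did not share the pattern of signs: Ccl2 stood at -0.19, 0.53 and 0.08, Ccl7 at -0.22, 0.49 and -0.07 and Ccl8 at -0.17, -0.04 and 0.03. The mean for Ccl2 was 0.14 ± 0.36 (SD, n = 3 pairs), with 0.305 without experiment 1 and -0.055 without experiment 2.

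Ccl17 and Ccl22 are ligands of Ccr4 and attract T cells. Ccl17 was at 4.86, 4.76 and 4.86 in irradiated cultures, against 4.55, 4.42 and 4.67 in controls. The groups did not overlap, and the difference was 0.28 ± 0.08 (SD, n = 3 pairs), in a probe set below the median gene. Its unadjusted p was 0.0108 and its adjusted p 0.995 in limma. Ccl22 was at 4.64, 4.50 and 4.53 in irradiated cultures and 4.27, 4.62 and 4.41 in controls, a difference of 0.12 ± 0.25 (SD, n = 3 pairs) that was 0 without experiment 1 and 0.245 without experiment 2. The eotaxins Ccl11 and Ccl24, which attract eosinophils, differed by 0.003 and 0.04, Ccl1 by -0.05 and Ccl20 by -0.03.

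Ccl25, which guides developing T cells and gut lymphocytes, was at 6.27, 6.11 and 5.99 in irradiated cultures, against 6.33, 6.31 and 6.44 in controls. The groups did not overlap, and the difference was -0.24 ± 0.20 (SD, n = 3 pairs), -0.13 without experiment 3. Its second probe set, at a similar level of 5.92, stood at -0.60, -0.01 and 0.10, so it did not repeat the order of the first. Ccl27a differed by -0.17 ± 0.20 (SD, n = 3 pairs), with -0.39 in experiment 1 and at most -0.08 in size in the others. Without experiment 1 it was -0.055. Ccl28, a ligand of mucosal surfaces, differed by 0.03.

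The CC ligands Ccl3, Ccl4, Ccl5, Ccl6 and Ccl9 were all within 0.08 units of 0 on average, all below it. The neutrophil attractants Cxcl1, Cxcl2, Cxcl3, Cxcl5 and Cxcl15 lay between -0.08 and 0.15. Cxcl2 stood at -0.55, 0.53 and 0.47, a mean of 0.15 ± 0.61 (SD, n = 3 pairs), which was -0.04 without experiment 2, -0.01 without experiment 3 and 0.50 without experiment 1. Cxcl5 stood at 0.07, 0.13 and -0.40.

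The interferon-induced ligands, which bind Cxcr3, were dim, at 4.415 for Cxcl10, 4.30 for Cxcl9 and 3.775 for Cxcl11. RefSeq's table lists Cxcl11 as a transcribed pseudogene in its reference mouse strain. Cxcl9 was at 4.08, 4.27 and 4.25 in irradiated cultures and 4.34, 4.62 and 4.26 in controls, a difference of -0.21 ± 0.18 (SD, n = 3 pairs) that was -0.135 without experiment 2. Its dimmer probe set differed by at most 0.01 in any experiment. Cxcl10 stood at -0.10, 0.38 and -0.33 and Cxcl11 at 0.34, -0.27 and -0.12, so neither kept a sign.

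Cxcl13 stood at -0.21, 0.39 and 0.47, a mean of 0.22 ± 0.37 (SD, n = 3 pairs), and its dimmer probe set at 0.01, 0.34 and 0.55. The mean of the brighter one was 0.43 without experiment 1, 0.13 without experiment 2 and 0.09 without experiment 3. Tested over all probe sets in limma, the dimmer one had an unadjusted p of 0.0374 and an adjusted p of 0.995. Cxcl14 stood at -0.18, -0.20 and -0.11, a mean of -0.16 ± 0.05 (SD, n = 3 pairs), and its dimmer probe set at -0.08, 0.00 and -0.10. Cxcl17, a mucosal chemokine, was at 4.75, 5.03 and 4.62 in irradiated cultures and 4.56, 4.74 and 4.73 in controls, and differed by 0.12 ± 0.21 (SD, n = 3 pairs). That difference was 0.04 without experiment 2 and 0.24 without experiment 3. Cxcl12 differed by 0.07, Cxcl16 by 0.02 and Xcl1 by 0.04. The gap of Cxcl14 was the steadiest of these over the pairs, though small.

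Of the receptors only Cxcr4 and Ccr1 reached the median gene. Cxcr4 was at 8.67, 9.06 and 9.30 in irradiated cultures and 9.05, 8.84 and 8.96 in controls, with differences of -0.38, 0.22 and 0.34. Ccr1 stood at -0.28, -0.03 and 0.18. In both genes experiment 1 was below 0 and experiment 3 above it, and the mean macrophage marker level was likewise below its control in experiment 1 and above it in experiment 3. Other members had these signs too, among them Cxcl2, Cxcl13 and Ccl2. Of the 49 members 34 were below 0 in experiment 1, against 56.4% of all genes, and 21 were above it in experiment 3, against 48.9%. The share of all genes with both signs was not computed. In experiment 3 the differences of single macrophage markers ran from -0.03 for Tyrobp to 0.79 for Cd14. A link to the markers was not tested. The other 14 receptors lay between 2.83 for Ccr3 and 5.14 for Cxcr3, and their differences between -0.16 for Cxcr6 and 0.12 for Cx3cr1. Ccr2, the receptor for Ccl2, Ccl7 and Ccl12, stood at 5.13 with a difference of 0.10, and its 3 other probe sets at 2.21 to 2.65. Ccr9, the receptor for Ccl25, had 5 probe sets between 2.82 and 3.48. Of these the dimmest was above its control in all 3 experiments, by 0.31, 0.22 and 0.25, and so was another, by 0.15, 0.06 and 0.30. The latter is of the suffix x type that can also bind related transcripts. Tested over all probe sets in limma, their unadjusted p was 0.0185 for the dimmest and 0.107 for the latter, with an adjusted p of 0.995 for both. Of all genes, each read by its brightest probe set, 8.23% were above their control in all 3 experiments. The other 3 probe sets of Ccr9, the brightest among them, had mean differences of -0.07, -0.09 and -0.02. Ccr10 differed by -0.04, Ccr3 by 0.06, Ccr7 by -0.04, Cxcr2 by -0.13, Cxcr3 by 0.08 and Cxcr5 by -0.05.

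**Figure D4:**
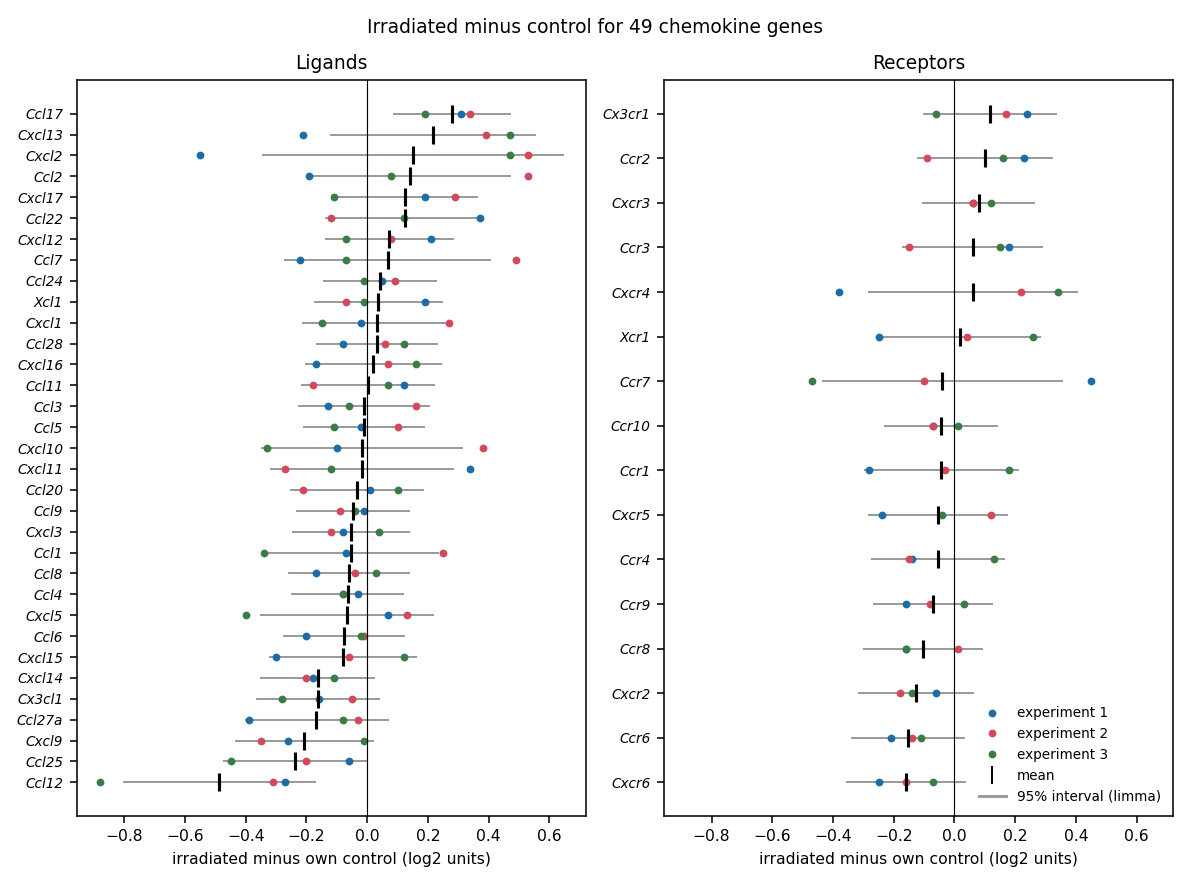
Irradiated minus own control in log2 units (horizontal axis) for 33 ligands and 16 receptors, with a dot per experiment, a tick for the mean and a grey bar for the 95% interval of limma. The intervals of Ccl12, Ccl25 and Ccl17 left out 0 before adjustment for the number of genes, and for Cxcl2, Cxcr4 and Cxcl13 the experiments lay on both sides of 0.

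Genes around the chemokines were read from lists in the same fit. Pf4 and Ppbp are CXC chemokines under other names. Pf4, bright at 11.65, had experiment means of 11.375, 11.73 and 11.84, lowest in experiment 1 like Ccl6 and Ccr1, and differed by -0.02 with irradiation. Of 5 atypical receptors, which lack G-protein signalling, 0 had an unadjusted p under 0.05 for irradiation, against 3.31% of all genes. Ackr3, the second receptor of Cxcl12, differed by 0.03. Of 22 genes of receptor signalling 12 were above and 10 below 0, against 45.4% and 54.5% of all genes, and 0 reached that p. For 10 genes of ligand processing and matrix binding the split was 5 and 5, with Dpp4, a protease that cuts Cxcl12, at -0.07 and the heparan sulphate carrier Sdc2 at 0.17.

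Of 22 inducers and NF-kB genes 11 were above and 11 below 0. At an unadjusted p under 0.05 stood 2, both lower (1.89% of all genes) and neither called. Il6 was at 5.22, 6.22 and 6.82 in irradiated cultures and 5.75, 6.51 and 6.94 in controls, a difference of -0.31 (SE 0.10). Zfp36, which destabilises the RNA of several inflammatory genes, differed by -0.20 (SE 0.08). Il6 also had experiment means of 5.485, 6.365 and 6.88, the same order as Ccl8 and Ccl12, with an F test adjusted p of 0.244 in limma after Benjamini-Hochberg. Among 13 interferon inducers and mediators 4 were above and 9 below 0, against 45.4% and 54.5% of all genes. Those at an unadjusted p under 0.05, where 3.31% of all genes stood, were Ifng (0.27, at a level of 2.64) and Socs1 (-0.20). No gene of these lists was called, in either test.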

How the data were processed

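Total RNA of each culture (200 ng) was labelled with biotin and hybridised to 1 Affymetrix mouse array, per the labels' protocols. The authors deposited 1 log2 value per probe set and array, made with RMA (background correction, quantile normalization, probe summary). RMA, affy and limma are named in the submitters' processing notes, without versions. The log base is not given in the sources used here and was taken from the range, 1.73 to 14.53. Detection calls were not used here. Quantile normalization hides a change common to all transcripts, and precision is limited by having 6 arrays.

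From the 45101 probe sets 64 control ones were left out of the tests. Symbols came from the platform annotation (34945 probe sets with 1 symbol, 932 with several, 9160 with none), and all 49 members matched a current RefSeq gene by Entrez identifier. Probe sets with several symbols stayed out, among them 4 that name a member. No filter on dim genes was used. limma 3.58.1 in R 4.3.3 was fitted to 18193 genes with terms for experiment and irradiation, and p-values were Benjamini-Hochberg adjusted over all of them at 0.05. Residual degrees of freedom were 2, and moderation contributed 4.66 more. The design text pairs each irradiated culture with the control of its experiment. Deviations of the paired arrays from their group means correlated at 0.15, -0.09 and -0.01 over genes in experiments 1 to 3. The irradiated array of experiment 2 correlated more with the control of experiment 3, at 0.164. That of experiment 3 correlated more with the control of experiment 2, at 0.126. By this measure the arrays showed the pairing in experiment 1 only, and the pairing rests on the design text. Scripts were tested on simulated data. Members and lists were chosen with earlier results of these data known. Values on every array are given for the 15 members with the highest level, the 6 with the largest difference in each direction, those at an unadjusted p under 0.05 and the 15 with the smallest p between experiments. Of the other lists up to 4 genes with the smallest p could be named. Pf4, Ackr3, Dpp4, Itgam, Lyz2, Csf1r, Mrc1 and S100a8 were chosen after their values were seen.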

Additional observations from a re-analysis of the deposited data

How the results depend on the processing

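No chemokine gene was called for irradiation with the settings of the report or in any of 11 others. The fit without the replicate block also called 0 chemokine genes and 0 genes, with 2 chemokine genes at an unadjusted p under 0.05, and a random block gave the same counts. Leaving out 1 experiment gave 1 to 5 chemokine genes at an unadjusted p under 0.05 for irradiation and 3 to 6 for differences between experiments, against 8 in all. That count was 5 without moderation and 4 without the control array of experiment 3, and it and its settings were chosen after seeing the data. Without moderation, on 2 residual degrees of freedom only, 8 genes were called for irradiation and 8 between experiments, 0 of them chemokine genes. With the settings of the report the smallest adjusted p for irradiation was 0.995 over all genes (limma, Benjamini-Hochberg). The members at an unadjusted p under 0.05 for irradiation changed with the setting. Ccl12 was at 0.171 without the block and 0.184 with a random block (limma), and at 0.132 by ordinary least squares. That least squares fit, which has no moderation, gave 0.174 for Ccl25 and 0.0268 for Cxcl14. Between experiments 1 gene was called with mean probe sets, with only the brighter genes tested, with centred arrays and without the irradiation term, and 2 with trend and robust moderation, none a chemokine gene in the F test. Without the irradiation term 1 chemokine gene, Ccl8, was called in experiment 3 minus experiment 1, at 0.97. With only the genes above the median gene level the median irradiated minus control difference over the members was 0.005, and 7 had both arrays of experiment 1 lowest, where fewer genes were tested. Leaving out 1 experiment gave -0.04 to 0.50 for Cxcl2 and -0.055 to 0.305 for Ccl2, with signs turned for Cxcl2 without experiment 2 and without experiment 3 (-0.01) and for Ccl2 without experiment 2, and the cause was not tested. Hybridization batches and detection over background were not analysed here.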
